A study of Mus musculus with 2 samples.

Results

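The genes described here are enzymes and regulators of cholesterol synthesis, chosen by name with earlier results of these data known. They are the synthesis enzymes Hmgcs1, Idi1, Fdft1, Sqle, Lss and Sc4mol, the sterol-sensing retention protein Insig1 and the transcription factor gene Srebf2. Of the 8 listed genes, 6 were matched by symbol among the 10543 genes with a single symbol, and Hmgcs1 and Idi1 were not matched and are not analysed here. The libraries came from poly(A) RNA of thigh skeletal muscle from B6C3F1 mice, a hybrid laboratory strain, aged 26 months. The Control group ate the control diet, and the CR (calorie restriction) group ate about 40% fewer calories for 25 months, on a diet enriched to keep protein, vitamin and mineral intake per body weight close to that of controls. Each group has 1 library, so no value has a replicate error and no p-value can be given. The sources used here do not say whether a library pooled several mice.

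Cholesterol is built from acetyl-CoA through mevalonate, isoprenoid units, squalene and lanosterol. When membrane cholesterol in the endoplasmic reticulum is low, the escort protein SCAP carries SREBP-2, the product of Srebf2, to the Golgi apparatus, where proteases release the part that enters the nucleus and raises transcription of nearly every enzyme of the route. INSIG proteins hold SCAP back when sterols are plentiful, and Insig1 is itself a target of SREBPs, so its transcript is a common readout of their activity. SREBP-1, from Srebf1, acts mainly on fatty acid synthesis.

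Promoter windows of the members past 2-fold and of the regulator Srebf2 are shown so that the sterol-response and partner motifs near their starts can be read beside the expression values. They come from RefSeq (GRCm38.p6, which is not the build of the expression table), run 5′ to 3′ on the strand of the gene, and reach from 250 bases before the transcription start to 50 after it. Capitals mark matches on either strand to CACGTG (E-box), CCAAT (the box bound by NF-Y), GGGCGG (the Sp1 box) or TCACNCCA. Sc4mol is entered there under its current symbol, Msmo1.
Lss (chr10:76531355-76531654, plus strand): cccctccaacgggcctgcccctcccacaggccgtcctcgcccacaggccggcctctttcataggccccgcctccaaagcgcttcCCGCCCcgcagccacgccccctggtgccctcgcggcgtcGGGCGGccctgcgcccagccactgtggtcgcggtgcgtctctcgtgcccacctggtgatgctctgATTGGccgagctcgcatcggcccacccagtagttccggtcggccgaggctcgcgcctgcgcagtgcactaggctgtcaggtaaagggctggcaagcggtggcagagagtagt
Sc4mol (chr8:64733529-64733828, minus strand): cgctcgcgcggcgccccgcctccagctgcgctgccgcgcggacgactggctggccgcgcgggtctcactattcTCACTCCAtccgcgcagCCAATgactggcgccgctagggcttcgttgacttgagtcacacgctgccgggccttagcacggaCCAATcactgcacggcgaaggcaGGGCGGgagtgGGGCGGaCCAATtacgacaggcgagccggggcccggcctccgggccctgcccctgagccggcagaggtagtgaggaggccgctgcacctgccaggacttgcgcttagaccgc
Insig1 (chr5:28071162-28071461, plus strand): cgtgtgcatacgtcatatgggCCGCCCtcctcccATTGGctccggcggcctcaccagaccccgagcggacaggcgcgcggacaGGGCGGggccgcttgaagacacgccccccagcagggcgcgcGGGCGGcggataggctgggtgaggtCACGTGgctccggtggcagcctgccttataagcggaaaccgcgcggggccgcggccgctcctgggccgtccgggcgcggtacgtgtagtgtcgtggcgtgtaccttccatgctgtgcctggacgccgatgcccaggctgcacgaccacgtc
Srebf2 (chr15:82147019-82147318, plus strand): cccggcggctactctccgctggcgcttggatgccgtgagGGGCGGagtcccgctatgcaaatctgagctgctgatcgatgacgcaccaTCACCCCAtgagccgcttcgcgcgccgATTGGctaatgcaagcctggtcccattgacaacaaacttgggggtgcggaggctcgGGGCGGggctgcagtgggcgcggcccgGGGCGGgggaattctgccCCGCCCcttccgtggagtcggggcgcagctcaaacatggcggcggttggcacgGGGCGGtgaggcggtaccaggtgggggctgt

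All 4 windows held CCAAT and GGGCGG, which are common motifs: 37.4% and 35.7% of the 32851 RefSeq promoter windows of that length hold them. Sc4mol had 3 CCAAT matches, and Lss, Insig1 and Srebf2 had 1 each. CACGTG was matched in Insig1, 101 bases before the start, and in 7.15% of all windows. The sterol regulatory core TCACNCCAC was matched in none of the 4 printed windows and in 1.24% of all windows; the window of Hmgcs1, which has no expression value here, held 1 match. The shorter TCACNCCA, which lies inside TCACNCCAC and was chosen after the windows were read, was matched in Sc4mol, 177 bases before the start, in Srebf2, 162 bases before it, and in 4.36% of all windows. A match is a run of letters and not evidence of binding, and the absence of one in these windows says nothing of the factors.

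Values are FPKM (fragments counted per unit of transcript length and of library size) on the mouse build mm9. Where a pair is given, the control library comes first. Ratios are CR over control after adding 1 FPKM, and a gene was counted as past 2-fold when the ratio in either direction reached 2. The depth of the libraries is unknown, so no counting interval can be given. Muscle transcripts were abundant in both, with skeletal actin, Acta1, at 372424 and 354522 FPKM. The markers of other cell types and of slow fibres differed. Past 2-fold on the higher side in CR were 10 of 12 white adipocyte, 5 of 6 brown adipocyte, 8 of 8 slow-fibre and 2 of 7 endothelial markers. Over all genes that share was 8.01%. In bulk tissue, more cells of a type and more RNA per cell cannot be told apart.

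The comparison asks whether transcripts of the sterol route differ between the diets. In the CR library the lanosterol synthase Lss was 16.3-fold higher, Insig1 was 2.72-fold higher, and the sterol methyl oxidase Sc4mol was detected where the control library listed it at 0. The squalene synthase Fdft1 and the squalene epoxidase Sqle were less than 1.5-fold higher, and Srebf2 was 1.25-fold lower. Thus 3 of 6 members were past 2-fold on the higher side and 0 on the lower side. Of the 10533 genes whose mean reached 1 FPKM, 8.01% were past 2-fold on the higher side and 10.7% on the lower side. Among the 5 members above 0 in both libraries 2 were higher, where 6.15% of 9844 such genes were higher and 6.85% lower. The median log2 ratio of the 6 members was 0.95, and 0.47 without Sc4mol, against -0.03 over all genes. The members were chosen with earlier results of these data known, so these contrasts are a description and not an independent comparison.

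**Figure D1:**
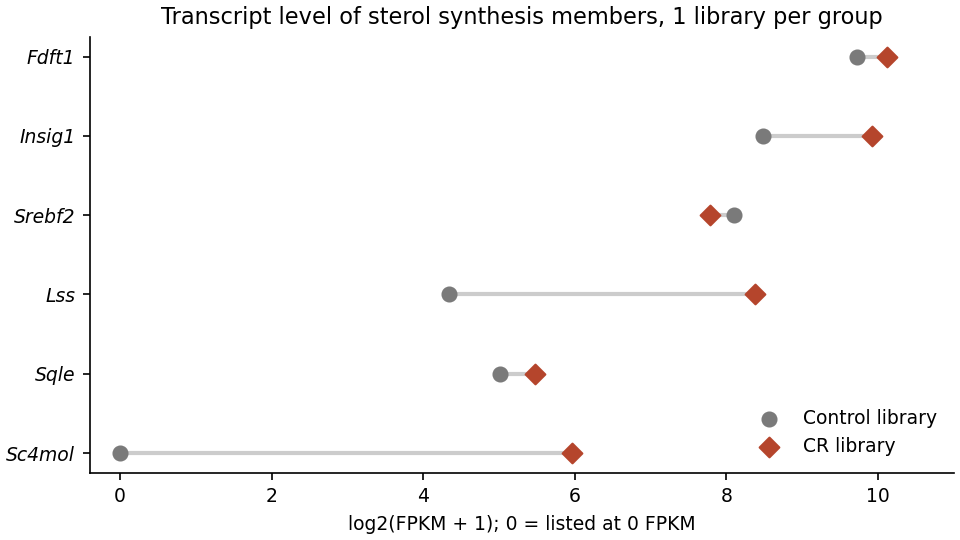
Transcript level of the 6 members in the control library (grey circles) and the CR library (red diamonds), as log2(FPKM + 1), ordered by mean level, with 1 library per group and so no error bars. Lss, Insig1 and Sc4mol lie far to the right in the CR library, Fdft1 and Sqle slightly to the right, and Srebf2 slightly to the left; the control point of Sc4mol is at 0.

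The members that make and use squalene differed widely from each other. Fdft1, which joins farnesyl diphosphate units into squalene (chromosome 14, 63763988 to 63796630, minus strand), stood at 844 and 1112 FPKM, a fold of 1.32. It was the most abundant member, at percentile 91.3 of mean FPKM over all genes. Its locus overlaps the end of Ctsb, the lysosomal protease cathepsin B on the opposite strand, by 771 bases, and Ctsb stood at 931 and 1407 FPKM, a fold of 1.51. The library preparation keeps no record of strand as it is described, so fragments in the overlap cannot be assigned and the value of Fdft1 is uncertain to that extent.

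Sqle, the first oxygen-requiring step and a rate-limiting one (chromosome 15, 59146647 to 59162748, plus strand), stood at 31.3 and 43.6 FPKM, a fold of 1.38. It lay at percentile 9.49 of mean FPKM, the second lowest of the members. Lss, which closes the ring system to give lanosterol (chromosome 10, 75994372 to 76018102, plus strand), stood at 19.3 and 331 FPKM. Its log2 ratio of 4.03 was the 14th highest of the 9844 genes above 0 in both libraries, while those of Sqle and Fdft1 ranked 1918 and 2243.

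Sqle and Lss therefore changed order. In the control library Sqle was 1.62 times as abundant as Lss, and in the CR library Lss was 7.58 times as abundant as Sqle. Fdft1 was 43.7 times as abundant as Lss in the control library and 3.36 times in the CR library. The ratio of Fdft1 to Sqle hardly moved, at 27.0 and 25.5. These quotients are taken inside a library, so a scale factor between the libraries cancels from them. The control values of Sqle and Lss were low, at 31.3 and 19.3 FPKM, so their order in that library is uncertain.

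**Figure D2:**
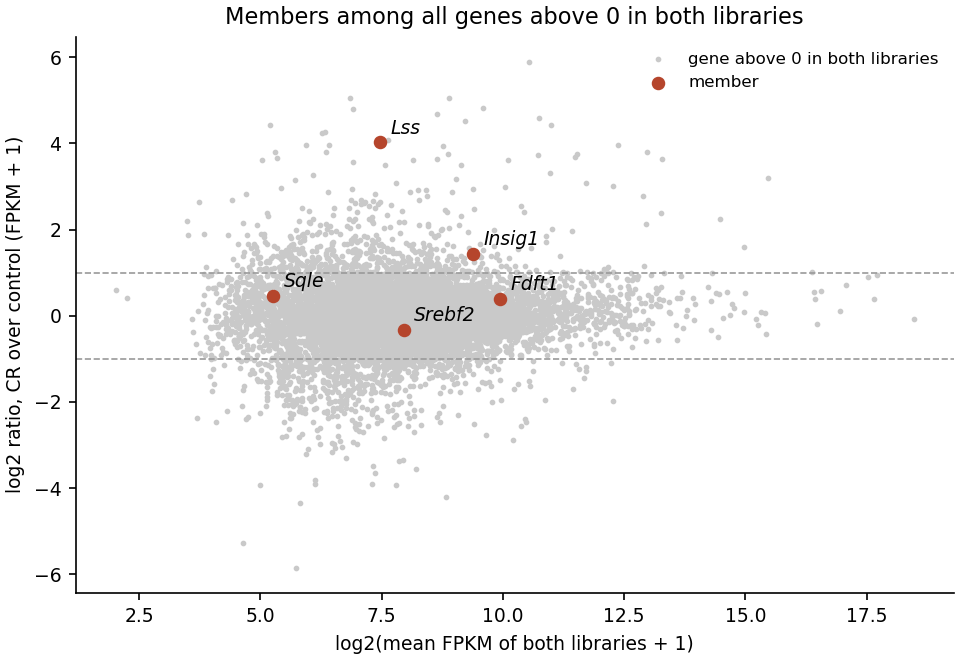
Each point is a gene above 0 in both libraries; the horizontal axis is log2 of the mean FPKM + 1, the vertical axis is the log2 ratio of CR over control, and dashed lines mark 2-fold. Lss lies near the upper edge of the cloud at a middling mean level, Insig1 above the upper line, and Sqle, Fdft1 and Srebf2 within the lines.

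Sc4mol, which removes methyl groups from lanosterol-derived sterols (chromosome 8, 67196942 to 67212375, minus strand), was listed at 0 and 61.5 FPKM. No fold is given, since a 0 in this table can be a failed estimate: Ttn, the giant sarcomere gene titin, is listed at 0 in both libraries. It had the lowest mean of the 6 members, 30.8 FPKM. Calls at such levels are common: of 2647 genes with a mean from 1 to 100 FPKM, 17.2% were past 2-fold on the higher side and 26.7% on the lower side, and 668 were listed at 0 in a library. Sqle falls in the same range. The control value of Lss, 19.3 FPKM, lies in that range too, and its mean exceeds 100 FPKM only through the CR library, so no share is set beside it. From 100 to 300 FPKM, where Srebf2 lies, 5.68% of 3716 genes were higher and 7.94% lower. From 300 FPKM upward, where Insig1 and Fdft1 lie, 4.29% of 4170 genes were higher and 2.93% lower.

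Among the regulators, Insig1 was past 2-fold on the higher side, and Srebf2 was within 2-fold and slightly lower. Insig1 (chromosome 5, 28397918 to 28405202, plus strand) stood at 357 and 972 FPKM, a log2 ratio of 1.44, the 274th highest. Srebf2 (chromosome 15, 81977699 to 82035770, plus strand) stood at 275 and 219 FPKM, a log2 ratio of -0.33, within 2-fold. With 1 library per group it is not known whether a difference of that size exceeds the variation between mice.

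The paralogs of these regulators are listed beside them. Insig2, the other INSIG gene, stood at 390 and 486 FPKM, so Insig2 was 1.09 times Insig1 under the control diet and 0.499 times Insig1 under CR. Srebf1 stood at 231 and 344 FPKM, which made it 0.843 times Srebf2 under the control diet and 1.57 times Srebf2 under CR. Both pairs thus changed order between the libraries, though each lay near equality in the control library. With 1 library per group it is not known whether these changes exceed the variation between mice.

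The other enzymes of the route were read from a list of 12 genes, which leaves out some enzymes, so its counts are of the listed genes only. Of these, 11 were measured, since Tm7sf2 falls in a locus merged with other symbols. Past 2-fold on the higher side were 4 of these 11, on the lower side 0, and the median log2 ratio was 0.66. Over all genes 8.01% were past 2-fold on the higher side and 10.7% on the lower side. Of the higher genes, Acat2, Pmvk and Dhcr7 had control values below 100 FPKM. Their means exceed 100 FPKM only through the CR library, as with Lss. Among genes with a mean from 1 to 100 FPKM, 17.2% were higher and 26.7% lower. Of the 11, 6 had a ratio above equality and 5 below it, against 5042 above and 5491 below over all genes.

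In the early steps, Acat2, the cytosolic thiolase that begins the route, stood at 58.3 and 353 FPKM, a fold of 5.96. The phosphomevalonate kinase Pmvk stood at 88.2 and 225 FPKM, a fold of 2.53, whereas the kinase before it, Mvk, stood at 147 and 120 FPKM and the decarboxylase after it, Mvd, at 209 and 160 FPKM. Adjacent mevalonate steps thus lay on either side of equality. Fdps, the farnesyl diphosphate synthase that supplies Fdft1, stood at 155 and 499 FPKM, a fold of 3.21.

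After lanosterol, the reductase Dhcr7, which acts late in the route, stood at 49.9 and 161 FPKM, a fold of 3.19. The desaturase Sc5d stood just under the 2-fold line, at 203 and 394 FPKM. The dehydrogenase Nsdhl, which acts after Sc4mol, stood at 126 and 199.7 FPKM. Cyp51, the demethylase directly after Lss, was the lowest of the 11 ratios, at 136 and 76.4 FPKM (log2 ratio -0.82). Hsd17b7 (235 and 192 FPKM) and the isomerase Ebp (170 and 148 FPKM) were also on the lower side and within 2-fold. Lss stood between Sqle, with a log2 ratio of 0.47, and Cyp51, with one of -0.82.

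**Figure D3:**
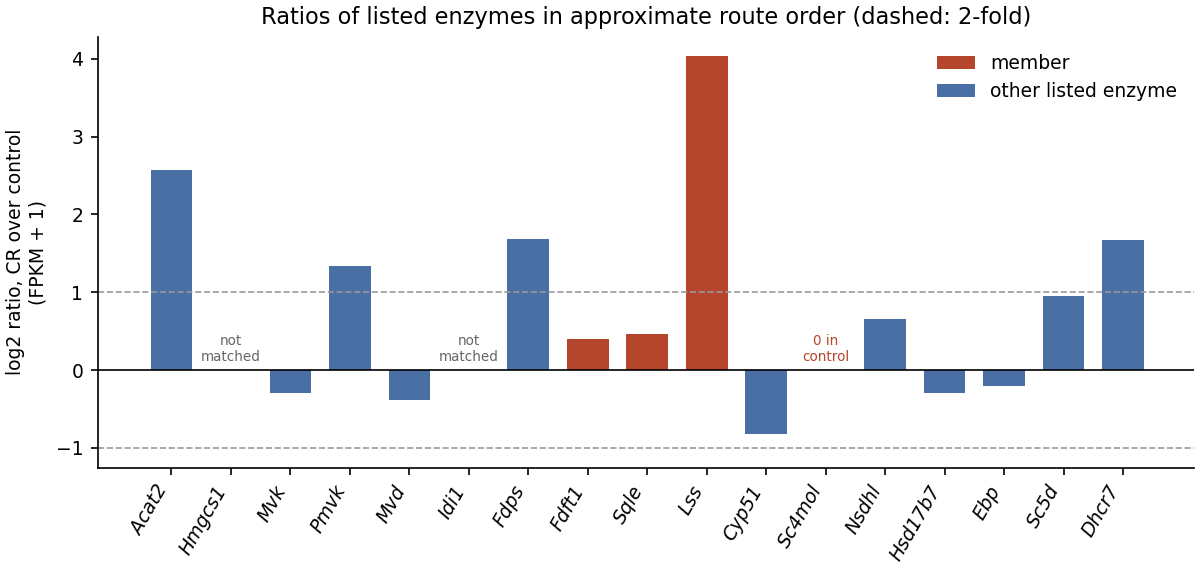
Log2 ratio of CR over control for the listed enzymes in the approximate order of cholesterol synthesis, from acetyl-CoA at the left to cholesterol at the right; red bars are members, blue bars the other listed enzymes, and dashed lines mark 2-fold. The bars past the upper line (Acat2, Pmvk, Fdps, Lss, Dhcr7) are spread along the route, with bars below 0 (Mvk, Mvd, Cyp51, Hsd17b7, Ebp) between them; Hmgcs1 and Idi1 were not matched and Sc4mol has no ratio because the control library lists it at 0.

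Of 11 genes for proteins that sense sterols and process SREBPs, 9 lay within 2-fold, 1 was past it on the higher side and 1 on the lower side. Of all 10533 genes, 8565 were within that limit, a like share. The median log2 ratio of the 11 was 0.01, and 0.15 without Ubxn8, which is listed at 0 in a library. The escort Scap stood at 142 and 103 FPKM, the protease Mbtps1 at 289 and 290.2 FPKM, and the protease Mbtps2, with the highest mean of the list, at 871 and 451 FPKM, the latter below Insig2. The higher gene was Erlin1, a membrane scaffold of sterol-regulated degradation, at 39.4 and 82.0 FPKM, and the lower gene was Ubxn8, listed at 133 and 0 FPKM.

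The non-sterol isoprenoid branch draws on the same farnesyl diphosphate as Fdft1. There 0 of 8 genes were past 2-fold on the higher side and 1 on the lower side, against 8.01% and 10.7% of all genes. Counts this small do not set the list apart from all genes. The lower gene was Fntb, the beta subunit of protein farnesyltransferase, at 346 and 109 FPKM. Coq2, of ubiquinone synthesis, was the most abundant, at 782 and 818 FPKM, and the median log2 ratio was -0.14.

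Among 7 measured genes of lipoprotein uptake and lysosomal sterol handling, 0 were past 2-fold on the higher side and 1 on the lower side. Over all genes 8.01% were higher and 10.7% lower, so counts this small do not set the list apart. The lower gene was Vldlr, the receptor for triglyceride-rich lipoproteins that muscle expresses, at 1007 and 476 FPKM. The lysosomal cholesterol exporter Npc1 lay just within 2-fold, at 301 and 152 FPKM. Of 5 measured genes of efflux and liver X receptor signalling, 2 were past 2-fold on the lower side, the sterol hydroxylase Cyp27a1 (654 and 298 FPKM) and Abcg1 (listed at 20.6 and 0 FPKM), while the exporter Abca1 stood at 528 and 518 FPKM. The median log2 ratios of the uptake and efflux lists were -0.19 and -0.64, the latter -0.33 without Abcg1.

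A list of fatty acid synthesis and related genes, most of them known targets of SREBP-1, had a higher median ratio than the sterol genes. The part of SREBP-1 or of adipocyte RNA in these ratios was not tested. Of the 10 genes 8 were past 2-fold on the higher side, against 8.01% of all genes. The median log2 ratio was 3.63, against 0.95 for the sterol members (0.47 without Sc4mol) and 0.66 for the other sterol enzymes. Elovl6, Thrsp, Acly, Scd1, Pnpla3 and Fasn had ratios from 12.3-fold (Fasn) to 28.3-fold (Elovl6), a range that includes the 16.3-fold of Lss. Scd1, the stearoyl-CoA desaturase, had the highest mean, at 1072 and 14907 FPKM, although Me1 was higher in the control library (3590 FPKM), and Pnpla3, a lipid droplet enzyme, stood at 58.4 and 736 FPKM. Insig1, at 2.72-fold, lay below 7 of the 10 and above Acss2 (2.51-fold), Me1 (1.87-fold) and Mlxipl (0.937-fold).

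Markers of other cells differed between the same libraries. The 12 white adipocyte markers summed to 5493 and 20816 FPKM, a ratio of 3.79, with Fabp4 the most abundant (2948 and 12924 FPKM), Adipoq at 153 and 1178 FPKM, and Adrb3 listed at 0 in the control library. The 6 brown adipocyte markers summed to 981 and 1136 FPKM, of which Ppargc1a, which muscle also expresses, gave 902 and 488. Of the 6, 5 were past 2-fold on the higher side, against 8.01% of all genes, and so were 2 of the 3 above 0 in both libraries. Ucp1, Otop1 and Prdm16 were listed at 0 in the control library. Lss (16.3-fold) had a higher ratio than the sum of white adipocyte markers, and Insig1 (2.72-fold), Fdft1 and Sqle had lower ones. That sum is mostly Fabp4, and the 11 markers above 0 in both libraries ran from 0.603-fold (Plin4) through 2.12-fold (Plin1) to 23.1-fold (Retn), a range that holds all of these members. The part of adipocyte RNA in the ratios of the members was not tested.

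Myelinating Schwann cells and macrophages also handle much cholesterol. The 8 measured Schwann cell and myelin markers summed to 919 and 1243 FPKM, with S100b past 2-fold on the higher side (listed at 0 and 42.3 FPKM) and Sox10 on the lower side (listed at 16.3 and 0 FPKM). The highest mean was that of Pmp22, at 178 and 351 FPKM, although Mbp was higher in the control library (222 FPKM). The 7 measured macrophage markers summed to 613 and 792 FPKM, with 2 past 2-fold on the higher side, Mrc1 (32.5 and 77.8 FPKM) and Cd14 (listed at 0 and 28.0 FPKM), and C1qa the most abundant (196 and 284 FPKM). Endothelial markers summed to 1592 and 2480 FPKM, with Pecam1 the most abundant (405 and 495 FPKM). Their median log2 ratio was 0.98, above the 0.66 of the other sterol enzymes and near the 0.95 of the 6 members (0.47 without Sc4mol). Fibroblast and tendon markers summed to 4202 and 6177 FPKM, with 3 of 9 past 2-fold on the higher side and 2 on the lower side, and Dcn the most abundant (1902 and 3098 FPKM). The shares over all genes were 8.01% on the higher side and 10.7% on the lower side. Of the 8 skin markers 2 were measured, Krt10 (16.5 and 43.1 FPKM) and Mc5r (32.0 and 41.3 FPKM). Muscle fibre markers had a median log2 ratio of 0.45, and slow-fibre markers one of 3.11, with Myh7, the slow myosin heavy chain, at 8953 and 81978 FPKM. The part of these cells and fibres in the members' ratios was likewise not tested.

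**Figure D4:**
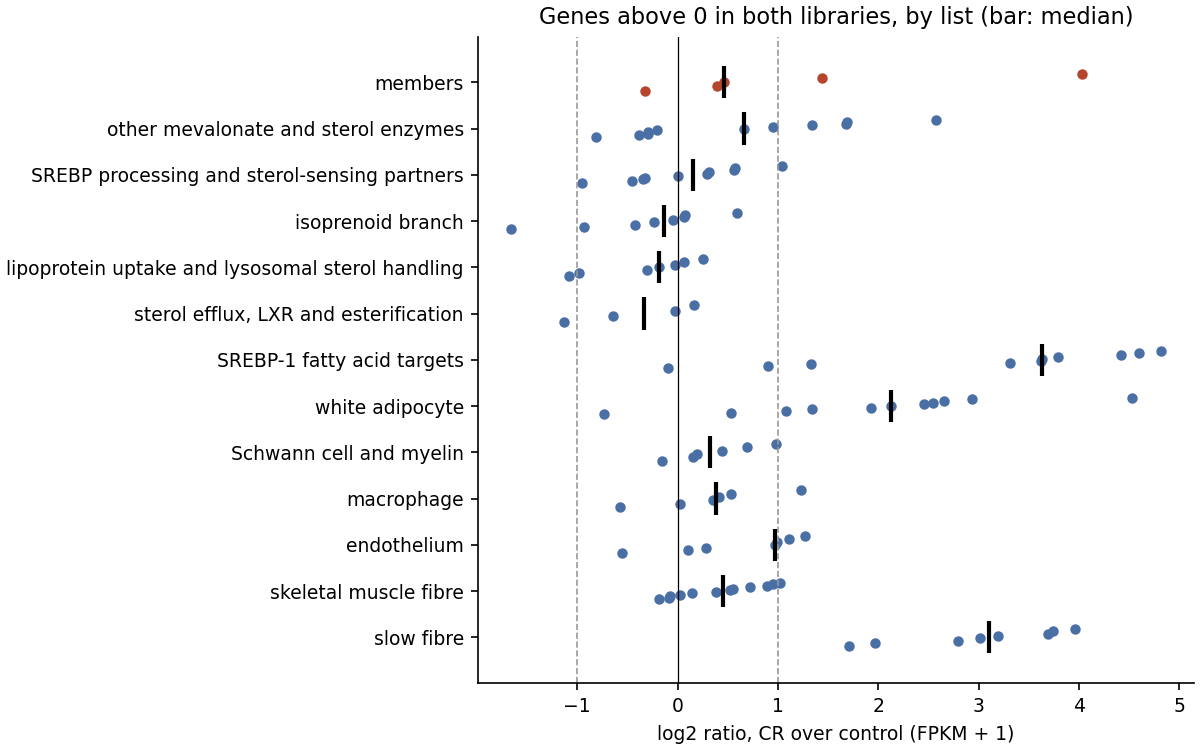
Log2 ratio of CR over control of each gene above 0 in both libraries, by list, with the median of the list as a black bar and dashed lines at 2-fold; red points are the sterol members. The medians of the fatty acid, white adipocyte, slow-fibre and endothelial lists lie to the right of those of the members and other sterol enzymes. The points of these sterol lists spread from below 0 to 4.03, and the uptake and efflux lists lie mostly to the left of 0.

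The named genes within 10 kb of Sc4mol, Sqle and Srebf2 lay within 2-fold, as did 8565 of all 10533 genes. So few genes are not set apart from all genes by this. Klhl2, 6283 bases from Sc4mol on the same strand, stood at 179 and 161 FPKM. E430025E21Rik, 546 bases from Sqle on the opposite strand, stood at 428 and 376 FPKM. Ccdc134, 5066 bases from Srebf2, stood at 270.2 and 202 FPKM, a log2 ratio of -0.42 beside the -0.33 of Srebf2. In this table no other locus lay within 10 kb of Insig1.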

How the data were processed

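Poly(A) RNA was sequenced as 76-base paired-end reads in 1 control and 1 CR library, grouped by the diet in the labels. TopHat 1.2.0, Cufflinks and Cuffdiff and build mm9 are named in the submitters' processing notes; the sources used here do not give other versions, options, annotation or filters. Per the file headers, the authors deposited an FPKM for each locus and library. Their minimum is exactly 1, and 98 of 101 control values between 1 and 2, but 0 of 77 between 2 and 3, carry more than 6 digits, as 6-digit values do after 1 is added; 1 was therefore subtracted, an inference from the digits. FPKM summed to 12758512 and 13608849 over the 23672 loci, high for this unit and unexplained, so values are compared within this table only. Depth is unknown: FPKM depend on effective length and no reads could be recovered.

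Loci with a single symbol were kept, loci of a symbol summed and 234 merged loci left out. The log2 ratio used a pseudocount of 1 FPKM and a filter at a mean of 1 FPKM, with a 2-fold threshold and no test. The arithmetic was checked on simulated data without noise, in which chosen genes were raised or lowered by a set factor. That check gives no rate of false calls between 2 single libraries. Python 3.11.15, numpy 2.4.6, pandas 2.3.3 and matplotlib 3.10.9 were used. Members, lists and settings were chosen with earlier results of these data known. By the rule for names, the text names every member and measured listed sterol enzyme, of other pathway lists the genes past 2-fold (at most 6, by size of ratio) and the gene with the highest mean, and of marker lists the gene with the highest mean and those listed at 0; genes outside it (Insig2, Srebf1, Scap, Mbtps1, Npc1, Acss2, Me1, Mlxipl, Adipoq, Retn, Plin1, Plin4, Mrc1, Krt10, Ttn and the neighbouring genes) were added after their values were seen. Some genes of the pathway are not reported here and were left out of the lists and their counts. Promoter motifs were read on both strands of RefSeq windows, found for 6 of the 8 listed genes. The alternatives used a pseudocount of 0.1, 5 or 20 FPKM, filters at 10 and 100 FPKM or none, centring on the median gene, equal sums without the 50 most abundant genes, the largest locus of a symbol, and leaving out genes listed at 0.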

Additional observations from a re-analysis of the deposited data

Results flagged for a closer look

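Loci that carry no gene name were outside the comparisons. Of those within 10 kb of a member, 2 had at least 2-fold more signal in the CR library than in the control library. An unnamed locus of 769 bases with no assigned strand, 835 bases past the end of Lss (chromosome 10, 76018938 to 76019706, mm9), was listed at 0 and 39.8 FPKM. An unnamed minus-strand locus of 123 bases, 6032 bases past the end of Fdft1 and inside the span of Ctsb (chromosome 14, 63757833 to 63757955), stood at 93.7 and 795 FPKM, an 8.40-fold ratio. The unnamed loci on either side of the latter, at 2072 and 2368 FPKM and at 1489 and 1921 FPKM, were within 2-fold. Whether these loci are extensions of the named transcripts was not tested.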

How the results depend on the processing

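Across the alternatives, the ratio of each of the 5 members above 0 in both libraries kept its direction and its side of the 2-fold line. A value was taken to have shifted when it moved by more than 1.5-fold or crossed that line, and 1 value did: the log2 ratio of Lss was 3.16 with a pseudocount of 20 FPKM, which lies above its control value, against 4.03. The count of members at least 2-fold higher was 2 in place of 3 with the filter at 100 FPKM, which leaves out Sc4mol and Sqle and which Lss passes only through its CR value, and without genes listed at 0, which leaves out Sc4mol; the median of the members was then 0.92 and 0.47. The count of the other sterol enzymes at least 2-fold higher was 4 with equal sums and with median centring. Equal sums without the 50 most abundant genes gave the lowest ratios of scaling, 0.32 for Fdft1, 0.40 for Sqle and -0.40 for Srebf2. No paired analysis was possible because each group has 1 library, and no library could be left out. The unknown depth limits the reading of Sc4mol, Lss and Sqle, whose control values were 0, 19.3 and 31.3 FPKM.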
